A study of Mus musculus with 14 samples.

Results

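The transcripts described here are those of the CD4 and CD8 coreceptors (Cd4, Cd8a, Cd8b1) and of the transcription factors that set the CD4 or CD8 lineage of a T cell (Zbtb7b, Runx3, Runx1 and Patz1). They were taken by symbol from bulk RNA-sequencing counts of mouse T cells, where 7 of the 8 listed names had a row among 50508 gene symbols; Mazr, the eighth name, is an older name of Patz1. The study concerned ILTCk, αβ T cells of tumours that are self-reactive, innate-like and able to kill, and their progenitors in the thymus (ILTCkP). There were 5 groups of 2 libraries, described by the submitters as biological replicates, with total counts of 16530085 to 32097301 per library.

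From the thymus of C57BL/6 mice came CD8SP, conventional thymocytes that carry CD8 without CD4, and ILTCkP, sorted as CD4-negative or CD4-dull, CD8α-negative or CD8α-dull cells that did not bind the CD1d tetramer; the rest of that gate is not given in the sources used here. The other 3 groups, called tumour groups below, are labelled retrogenic, a term for mice whose blood was remade by stem cells with an introduced T cell receptor; which receptor is not given in the sources used here. Tumour-infiltrating NK1.1+ ILTCk were sorted as CD45+ TCRγδ- TCRβ+ CD4- CD8α+ PD-1- NK1.1+ cells, and PD1+ Tconv, conventional T cells with the exhaustion marker PD-1, by the same markers but PD-1+ NK1.1-. The gate of NK1.1- ILTCk is not given in the sources used here. In the sample records the titles call both NK1.1 groups ILTCk while the cell type field calls them ILTCkP. Age, sex and how many mice went into a library are likewise not given in the sources used here. CD4 and CD8α protein were part of the sort where a gate is given, so there the Cd4 and Cd8a transcript levels are a check of it. CD8β is named in no gate that was read.

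As background, CD4 binds MHC class II and CD8 binds MHC class I, and both bring the kinase Lck to the T cell receptor. CD8 exists as an αβ heterodimer, the form of conventional killer T cells, and as an αα homodimer that needs no CD8β and is known from innate-like T cells of the gut epithelium. In the thymus, ThPOK, the zinc finger protein encoded by Zbtb7b, drives the CD4 fate and holds back Runx3, while Runx3 with its partner CBFβ silences Cd4 and Zbtb7b and drives the CD8 fate. Runx1 represses Cd4 at the double-negative stage. MAZR, encoded by Patz1, binds a Cd8 enhancer and takes part in repressing Zbtb7b.

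The 7 genes lie on 5 chromosomes of the GRCm38 build. Cd8a (chr6:71373427-71379173, plus strand) and Cd8b1 (chr6:71322788-71337494, plus strand) are neighbours, and Cd4 is on the same chromosome (chr6:124864692-124888221, minus strand). Zbtb7b is at chr3:89377644-89394776 (minus strand), Runx3 at chr4:135120652-135177990 (plus strand), Runx1 at chr16:92601466-92826149 (minus strand) and Patz1 at chr11:3288874-3309083 (plus strand).

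Because Runx proteins act on several of these genes, the 300-base windows around the transcription starts in RefSeq (GRCm38.p6; 250 bases before and 50 bases after the start) were searched for TGTGGT, the core letters of a Runx site, on both strands (ACCACA on the other). The table held windows for 5 of the 7 genes, 9 in all, and 3 of the 9 held the letters, beside 16.8% of all 32851 windows. The distal starts of Runx3 and of Runx1 each held a pair of matches on the same strand within 10 bases of each other, an arrangement found in 0.103% of all windows. Capitals mark the matches in the lines that follow, each read 5′ to 3′ along the gene's own strand.
Runx3, 250 bases before its distal start (chr4:135120395-135120644, plus strand, within an exon of the lincRNA Gm16225): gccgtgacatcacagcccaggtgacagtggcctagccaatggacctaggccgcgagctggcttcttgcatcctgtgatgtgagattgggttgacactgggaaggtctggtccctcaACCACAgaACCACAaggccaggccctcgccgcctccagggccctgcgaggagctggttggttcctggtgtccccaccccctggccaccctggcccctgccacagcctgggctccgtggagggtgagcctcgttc
Runx1, the pair after its distal start (chr16:92826027-92826052, minus strand): taaacaACCACAgaACCACAagttgg
Zbtb7b, 250 bases before its inner start (chr3:89387672-89387921, minus strand): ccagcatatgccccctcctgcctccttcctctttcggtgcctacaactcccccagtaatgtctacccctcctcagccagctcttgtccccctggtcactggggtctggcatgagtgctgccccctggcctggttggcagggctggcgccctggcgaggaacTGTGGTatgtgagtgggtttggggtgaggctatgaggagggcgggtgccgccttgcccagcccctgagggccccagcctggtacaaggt
Cd8a, 250 bases before its start, with no match (chr6:71373177-71373426, plus strand): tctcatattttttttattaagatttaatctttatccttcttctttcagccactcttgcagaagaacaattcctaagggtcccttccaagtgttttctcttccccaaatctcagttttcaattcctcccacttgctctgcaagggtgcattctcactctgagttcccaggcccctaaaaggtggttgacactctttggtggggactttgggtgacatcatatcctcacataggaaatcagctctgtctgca
In Runx3 the pair lay 134 to 129 and 126 to 121 bases before the start. In Runx1 it lay 29 to 34 and 37 to 42 bases after it, with the same 6 letters and the same gap. The match of Zbtb7b lay 89 to 84 bases before the inner start. A match describes the letters only; binding was not measured.

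In the thymus, ILTCkP had almost none of the CD8 transcripts of CD8SP and carried the transcript of ThPOK, which was close to absent from CD8SP (the plot of levels by library). Cd8a and Cd8b1 fell, Zbtb7b rose, and Cd4, Runx3, Runx1 and Patz1 did not pass the test. So 3 of the 7 genes were called by edgeR's quasi-likelihood test (Benjamini-Hochberg adjusted p under 0.05 over the 14634 genes tested), in a comparison where 4.71% of all genes were called. The 1 higher and 2 lower stand beside 3.38% and 1.33% of all genes. DESeq2 called the same 3, beside 13.6% of all genes. The sort used CD8α, so the call of Cd8a is a check of the gate and not a separate result. Cd8b1 is its neighbour on the chromosome, and how far its fall follows from that gate was not tested.

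**Figure D1:**
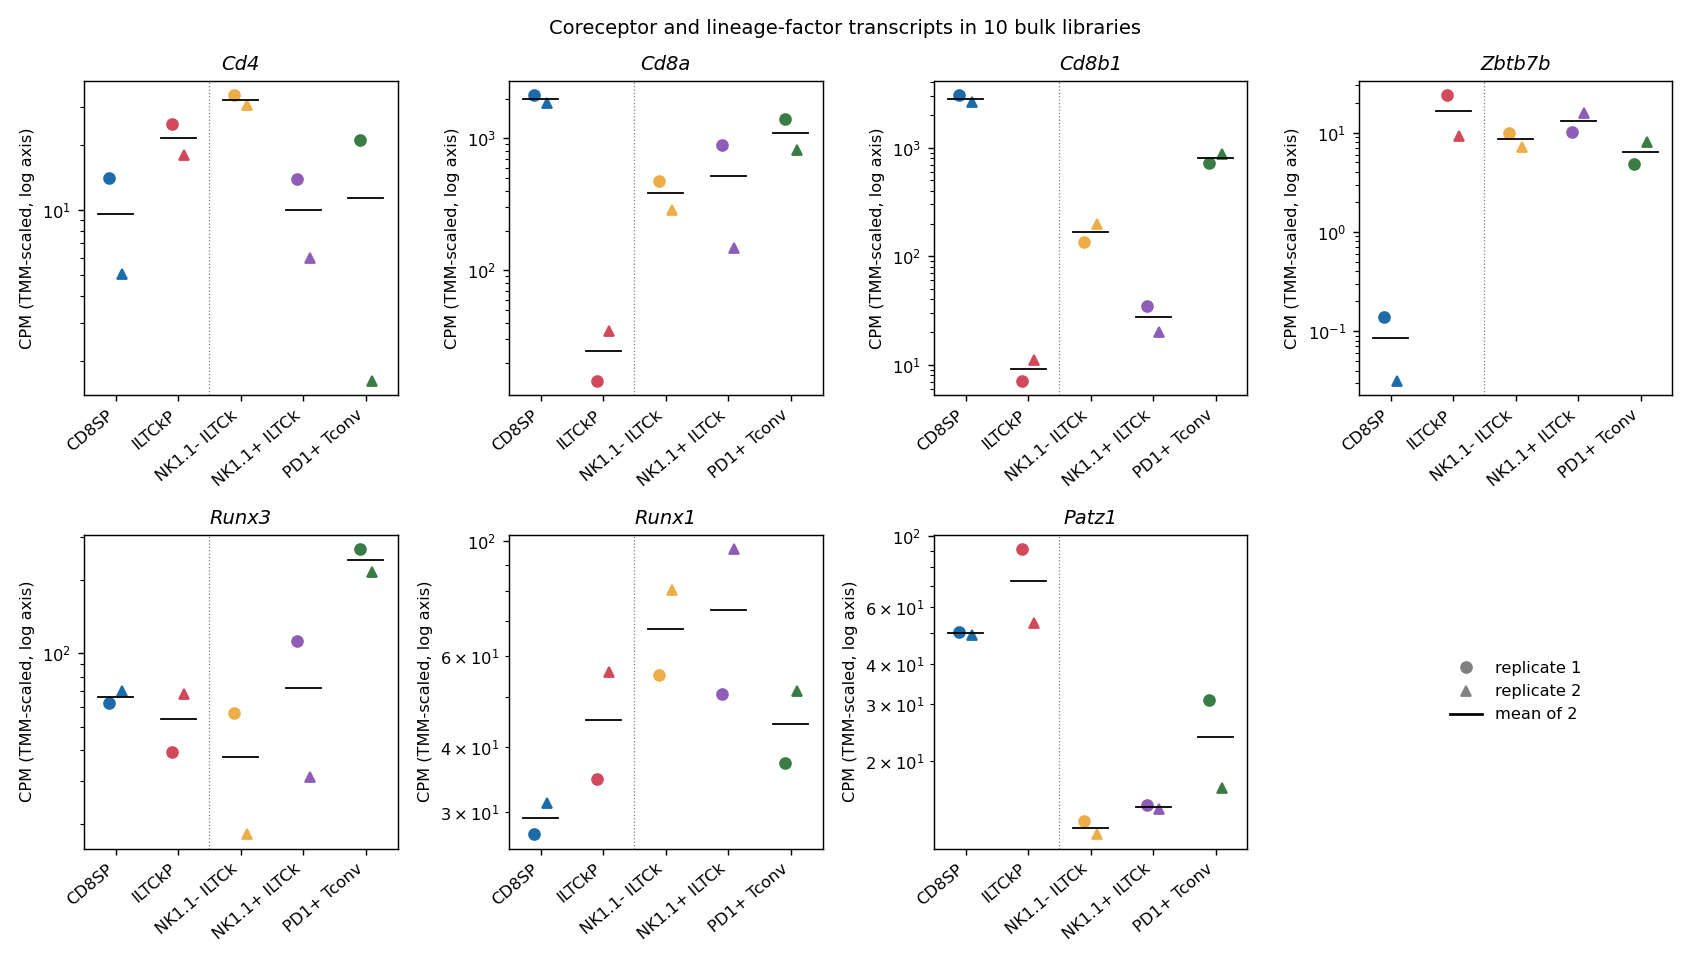
Level of each of the 7 transcripts in the 10 libraries, in CPM, read counts scaled by TMM to library size within each table, on log axes; circles and triangles are replicates 1 and 2, bars the mean of 2, and the dotted line parts thymic from tumour groups. Cd8b1 and Patz1 are the genes with no overlap between neighbours in the order of the groups.

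Cd8a, the chain shared by both forms of CD8, was at 2116 and 1842 CPM in the CD8SP libraries and at 14.6 and 34.8 CPM in ILTCkP. Levels here are CPM, read counts per library scaled by TMM. The log2 fold change of Cd8a was -6.32 ± 0.52 (SE; edgeR adjusted p = 0.00626, n = 2 per group); it was -5.82 without ILTCkP replicate 1 and -7.09 without ILTCkP replicate 2. Cd8b1, the β chain, was at 3043 and 2618 CPM in CD8SP and at 7.13 and 11.1 CPM in ILTCkP, a log2 fold change of -8.28 ± 0.37 (edgeR adjusted p = 0.00208). The groups were far apart for both chains, and the fitted fall of Cd8b1 was the larger. Within a library, the ratio of Cd8b1 to Cd8a per kilobase of exon was 3.53 and 3.49 in CD8SP, and 1.20 and 0.780 in ILTCkP. On the log2 scale the count ratio was lower by 1.86 in ILTCkP, where both libraries lay below both CD8SP libraries (exact permutation test, two-sided, p = 0.333, the smallest that 2 against 2 libraries can give).

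Zbtb7b was counted 4 times in CD8SP replicate 1 and 1 time in replicate 2 (0.138 and 0.0316 CPM). In ILTCkP it had 603 and 303 counts (23.8 and 9.29 CPM). ThPOK transcript was thus present in both progenitor libraries and near the floor in both CD8SP libraries. edgeR gave a log2 fold change of 7.56 ± 0.88 (adjusted p = 0.0127), which depends on the prior count at so low a level. It was 8.86 without CD8SP replicate 1, 6.85 without CD8SP replicate 2, 6.75 without ILTCkP replicate 1 and 8.09 without ILTCkP replicate 2. The ratio of the pooled counts, scaled to library size, was 189 with an exact 95% interval of 80.8 to 585 that covers counting error only. The antisense gene Gm15417 overlaps Zbtb7b and had 8 and 5 counts in CD8SP and 78 and 96 in ILTCkP. Reads of the overlap cannot be told apart, since no source used here says whether the counting used strand.

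Cd4 was at 14.1 and 5.03 CPM in CD8SP and at 25.0 and 17.9 CPM in ILTCkP. The libraries did not overlap, but the log2 difference of 1.17 ± 0.55 did not pass the edgeR test (adjusted p = 0.282). Per kilobase, Cd4 stood at 1.55 and 0.464 times the Cd8a level in ILTCkP, against 0.00600 and 0.00246 times in CD8SP. Neither coreceptor was abundant in the progenitors, which is what the gate on both proteins selects.

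Runx3, the CD8-fate factor, was at 62.5 and 70.3 CPM in CD8SP and at 39.3 and 68.0 CPM in ILTCkP, with overlapping libraries and a log2 difference of -0.31 ± 0.33 (edgeR adjusted p = 0.628). ILTCkP therefore carried Runx3 and Zbtb7b transcript in the same bulk libraries: the ratio of Zbtb7b to Runx3 per kilobase was 0.541 and 0.122 there, against 0.00197 and 0.000403 in CD8SP. Bulk counts do not show whether single cells held both. Runx1 was at 27.1 and 31.2 CPM in CD8SP and at 34.6 and 55.7 CPM in ILTCkP (log2 difference 0.63 ± 0.34, edgeR adjusted p = 0.332). Patz1 was at 50.4 and 49.3 CPM in CD8SP and at 91.0 and 53.8 CPM in ILTCkP (log2 difference 0.54 ± 0.32, edgeR adjusted p = 0.38). The 2 ILTCkP libraries differed from each other for Runx3, Runx1 and Patz1 by more than the 2 CD8SP libraries did, and single libraries changed these calls. Without ILTCkP replicate 1, Runx1 passed the edgeR test (log2 0.94, adjusted p = 0.00752). Without ILTCkP replicate 2, Runx3 (log2 -0.76, edgeR adjusted p = 0.00766) and Patz1 (log2 0.87, edgeR adjusted p = 0.00168) passed; in these fits the lone ILTCkP library is assumed to vary like CD8SP. By libraries alone, 4 of the 7 genes were higher without overlap in ILTCkP and 2 were lower, beside 28.8% and 29.3% of all genes.

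Macrophage and monocyte markers were low in the thymic libraries. The 12 of them summed to 20.5 to 23.4 CPM in CD8SP and 18.8 to 29.6 CPM in ILTCkP, with 2 to 5 at 0 in a library. The 5 B cell markers summed to 44.2 to 46.7 CPM in CD8SP and 39.4 to 58.7 CPM in ILTCkP. For the 5 stromal and endothelial markers the sums were 113 to 123 and 71.5 to 109 CPM. The 5 NK cell markers had a higher sum in ILTCkP, at 13.6 to 21.3 CPM against 1.20 to 1.69 CPM in CD8SP. Klrb1c (12.1 ± 4.12 against 0.524 ± 0.428 CPM) and Klrk1 (4.89 ± 0.841 against 0.921 ± 0.0842 CPM) gave most of it. Ncr1 and Klra8 were at 0 in every thymic library, and Klre1 was at 0.407 ± 0.464 CPM in ILTCkP and 0 in CD8SP. The 7 markers of double-positive thymocytes, the stage that carries CD4 and CD8 together, summed to 117 to 153 CPM in CD8SP and 120 to 140 CPM in ILTCkP.

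Among 40 genes of the lineage-choice circuit (Runx partners and corepressors, factors beside ThPOK, chromatin regulators of the coreceptor loci, the IL-7 pathway and coreceptor signalling), all tested, edgeR called 3 higher and 3 lower in ILTCkP, beside 3.38% and 1.33% of all genes. Higher were Ikzf3, which encodes Aiolos (200 ± 22.0 against 57.2 ± 10.1 CPM, SD, n = 2; log2 1.81), and the E protein inhibitors Id2 (285 ± 10.6 against 106 ± 16.1 CPM; log2 1.43) and Id3 (1520 ± 384 against 520.5 ± 53.8 CPM; log2 1.55). Lower were Satb1, a chromatin organiser that acts on the lineage genes (81.6 ± 16.2 against 544 ± 49.6 CPM; log2 -2.74), Bcl11b, which upholds T cell identity (26.2 ± 2.21 against 158 ± 16.7 CPM; log2 -2.59), and Themis, which acts in positive selection (27.7 ± 16.3 against 169 ± 39.7 CPM; log2 -2.61). The median log2 difference of the 40 was 0.11, against 0.01 over all genes tested. The count of 6 depended on the libraries used. It was 4 without CD8SP replicate 1, 3 without CD8SP replicate 2, 13 without ILTCkP replicate 1 and 23 without ILTCkP replicate 2.

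In neither lineage programme did more than 5 members pass the test in ILTCkP, and the counts stand beside 3.38% higher and 1.33% lower over all genes. Of 10 genes of the CD8 and killer programme, edgeR called 3 higher: Ccl5, a chemokine of killer cells (log2 4.13), Tbx21, the gene of T-bet (log2 3.35), and Xcl1, a chemokine that draws dendritic cells (log2 1.97). The 2 lower were Itgae, the integrin CD103 (log2 -1.95), and Eomes, a T-box factor of CD8 cells (log2 -2.63). Of 9 tested genes of the CD4 helper and regulatory programme, edgeR called 3 higher and 0 lower: Cd40lg, the helper ligand (log2 2.42), Il4, the cytokine (log2 5.03, at 1.77 ± 0.508 against 0.0503 ± 0.0264 CPM), and Foxp3, the regulatory T cell factor (log2 2.88, at 37.2 ± 9.04 against 5.05 ± 3.15 CPM). The median log2 differences of the 2 lists were 0.23 and 1.18.

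The tumour libraries need a remark on their make-up before the values. The 7 T cell markers (CD3 chains and receptor constant genes) summed to 1490 and 1093 CPM in NK1.1- ILTCk, 2982 and 593 CPM in NK1.1+ ILTCk, and 4694 and 3173 CPM in PD1+ Tconv, against 5969 to 7780 CPM in the thymus. The 12 macrophage and monocyte markers, none at 0, summed to 3072 and 3019 CPM in NK1.1- ILTCk, 6666 and 18570 CPM in NK1.1+ ILTCk, and 159 and 1065 CPM in PD1+ Tconv. The 9 dendritic cell markers reached 344 CPM at most, with Clec9a and Xcr1 detected in all 6 libraries. The 6 epithelial and gland markers summed to 262453 CPM in PD1+ Tconv replicate 2 and 37183 CPM in NK1.1- ILTCk replicate 1. In the other 4 libraries they summed to 1833 to 3523 CPM. The gland gene Bpifa2 alone was at 260889 CPM in the former library and 34765.5 CPM in the latter. Each of the other markers of that list had its highest mean in NK1.1- ILTCk. In bulk samples, fewer cells of a type and less RNA per cell cannot be told apart.

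Of the 7 genes, Cd8b1 stood out among the tumour groups: NK1.1+ ILTCk held little of it, NK1.1- ILTCk an intermediate amount and PD1+ Tconv the most. Cd8a, by contrast, tracked the T cell markers of the library. Runx3 was highest in both PD1+ Tconv libraries, and no fit run called Zbtb7b, Runx1, Cd4 or Patz1 in a tumour contrast. The contrasts with PD1+ Tconv share those 2 libraries, and each ILTCk group also enters 2 contrasts, so they are not independent of each other.

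Cd8b1 was at 722 and 880 CPM in PD1+ Tconv, and at 134 and 199 CPM in NK1.1- ILTCk. The NK1.1+ ILTCk libraries held 34.9 and 20.2 CPM. No group overlapped another. The log2 difference between NK1.1+ ILTCk and PD1+ Tconv was -4.86 ± 0.53, which missed the edgeR threshold (adjusted p = 0.0725) and passed with DESeq2 (adjusted p = 1.37e-19). NK1.1- ILTCk differed from PD1+ Tconv by -2.26 ± 0.47 (adjusted p = 0.344 with edgeR and 0.000628 with DESeq2), and NK1.1+ from NK1.1- ILTCk by -2.60 ± 0.48 (adjusted p = 1 with edgeR and 0.000303 with DESeq2).

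In these 3 contrasts edgeR called 0 of the 7 genes and 0% of the 18091 genes tested. At an unadjusted edgeR p under 0.05 it had 1, 2 and 1 of the 7 in the order just given, beside 14.3%, 11.9% and 3.94% of all genes. DESeq2 called 1 of the 7 (Cd8b1) between NK1.1+ ILTCk and PD1+ Tconv, beside 7.01% of all genes. It called 2 (Cd8b1 and Runx3) for NK1.1- ILTCk against PD1+ Tconv, beside 3.91%, and Cd8b1 alone for the ILTCk groups, beside 0.315%. By libraries alone, 4, 6 and 4 of the 7 genes did not overlap in these contrasts, beside 41.5%, 45.8% and 37.5% of all genes. With no filter on low counts, edgeR called Cd8b1 in each of the 3 contrasts (adjusted p = 8.25e-13, 0.00412 and 0.00103) and Runx3 in both against PD1+ Tconv (0.0229 and 0.000186). limma-voom called 3 genes in all between NK1.1+ ILTCk and PD1+ Tconv, Cd8b1 among them, and 0 of the 7 in the other tumour contrasts.

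**Figure D2:**
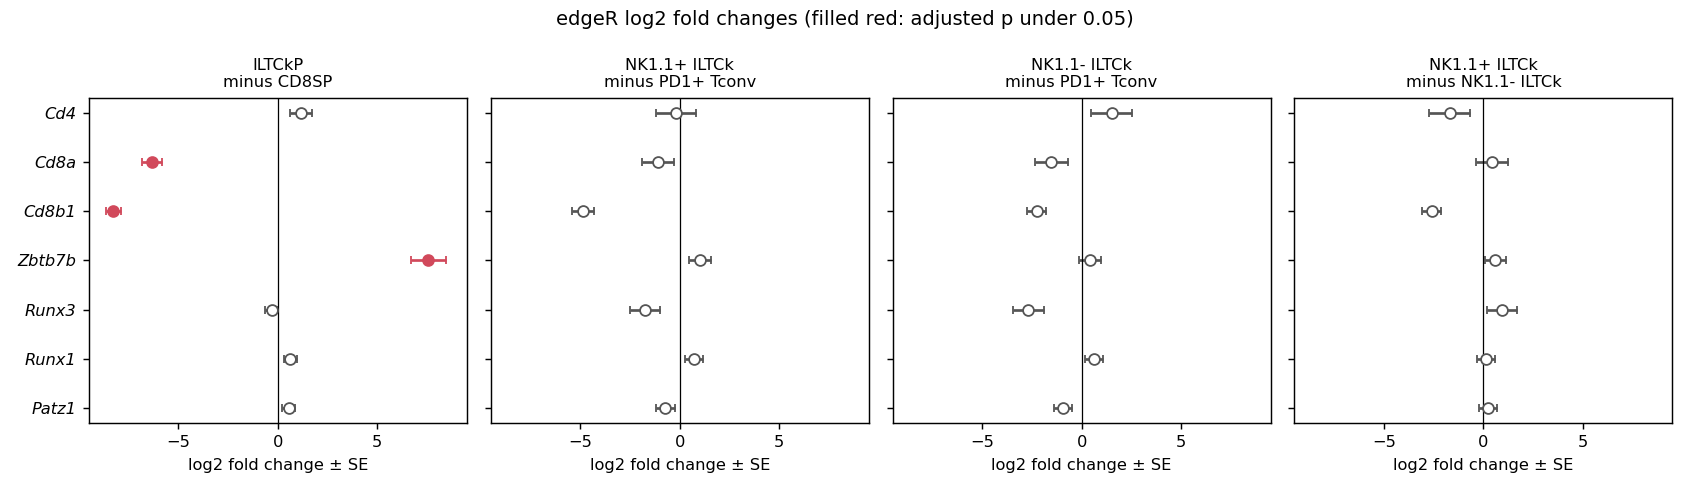
Log2 fold change ± SE of the 7 genes in each contrast (first-named group minus second), from edgeR; filled red points passed an adjusted p of 0.05. Cd8a, Cd8b1 and Zbtb7b passed in the thymus and no gene passed among the tumour groups, where Cd8b1 had the largest difference from PD1+ Tconv in NK1.1+ ILTCk (-4.86).

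Single libraries bore on the weaker DESeq2 calls. The call of Cd8b1 between NK1.1+ ILTCk and PD1+ Tconv held with each of the 4 libraries left out in turn, including the library richest in macrophage markers and the library richest in gland markers; its edgeR log2 difference ran from -5.30 to -4.51. For NK1.1- ILTCk against PD1+ Tconv, the DESeq2 call of Cd8b1 was lost without NK1.1- ILTCk replicate 1 (adjusted p = 0.175) or replicate 2 (0.0553). The call for NK1.1+ against NK1.1- ILTCk was lost without NK1.1- ILTCk replicate 2 (adjusted p = 0.349) or NK1.1+ ILTCk replicate 2 (0.202).

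Cd8a was at 1393 and 809 CPM in PD1+ Tconv, 477 and 288 CPM in NK1.1- ILTCk, and 887 and 147 CPM in NK1.1+ ILTCk. NK1.1+ ILTCk overlapped both other groups, and its log2 difference from PD1+ Tconv was -1.09 ± 0.82 (edgeR adjusted p = 0.603). That value was -2.90 with NK1.1+ ILTCk replicate 1 left out, -0.31 with its replicate 2 left out and -0.63 with PD1+ Tconv replicate 1 left out. For NK1.1- ILTCk against PD1+ Tconv it was -1.53 ± 0.83 (edgeR adjusted p = 0.497). The ILTCk groups differed by 0.44 ± 0.81, with NK1.1+ ILTCk replicate 1 left out the difference was -1.38.

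Set against the T cell markers of its own library, a measure added after the levels were seen, Cd8a was nearly level across CD8SP and the tumour groups. Per 1000 CPM of T cell markers it stood at 272 and 254 CPM in CD8SP, 320 and 263 for NK1.1- ILTCk, 298 and 248 for NK1.1+ ILTCk, 297 and 255 for PD1+ Tconv, against 2.44 and 5.56 in ILTCkP. With the 4 CD3 chain genes alone as the denominator, the 8 libraries of those groups ran from 398 to 548 and ILTCkP stood at 4.75 and 10.1. The introduced receptor could add reads to Trac, Trbc1 and Trbc2, which was not tested; the CD3 chains do not have that source.

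Cd8b1 did not level out in this way. Per 1000 CPM of T cell markers it was at 391 and 361 CPM in CD8SP, 154 and 277 for PD1+ Tconv, 90.0 and 182 for NK1.1- ILTCk, 11.7 and 34.1 for NK1.1+ ILTCk, and 1.20 and 1.77 in ILTCkP. NK1.1+ ILTCk stayed below both other tumour groups without overlap, while NK1.1- ILTCk and PD1+ Tconv now overlapped. Against the CD3 chains, NK1.1+ ILTCk was at 17.9 and 54.8, NK1.1- ILTCk at 154 and 314, and PD1+ Tconv at 267 and 507. Macrophage and T cell marker levels moved with the groups for Cd8b1 CPM, and their part in its levels was not tested. In units of T cell markers, both NK1.1+ ILTCk libraries lay below both PD1+ Tconv libraries.

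**Figure D3:**
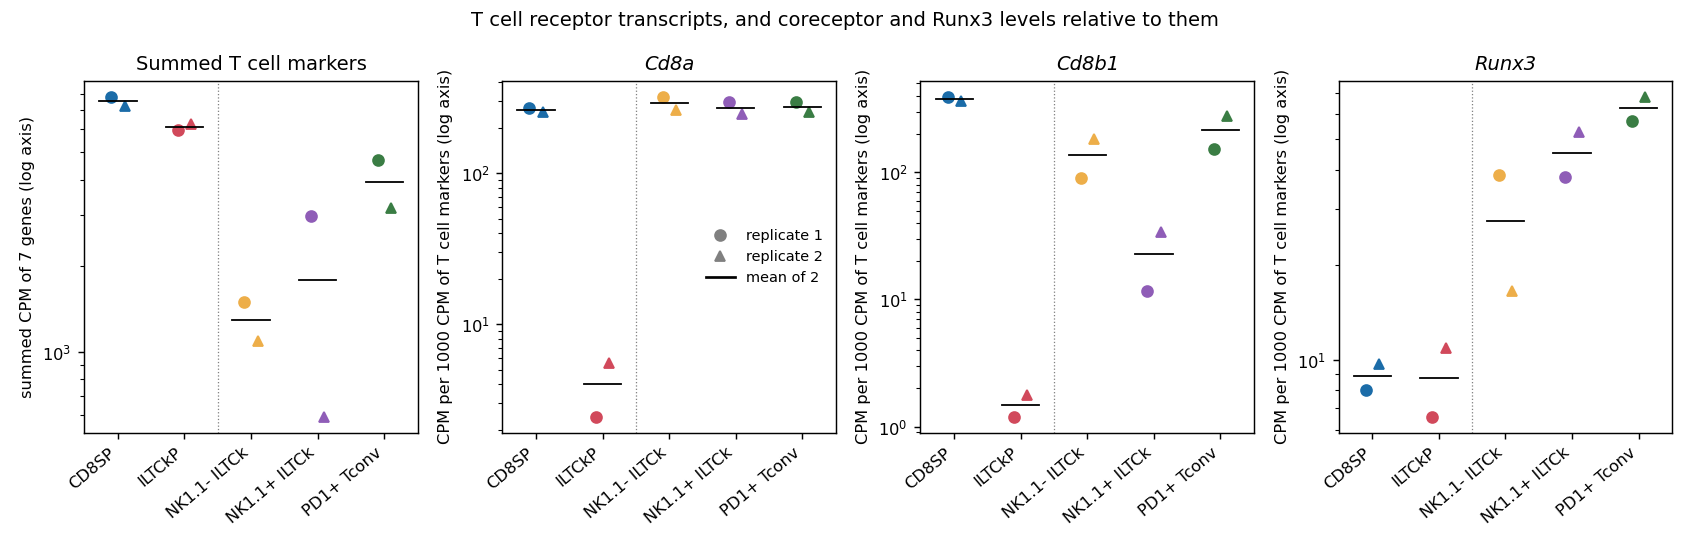
Summed CPM of the 7 T cell markers in each library, then Cd8a, Cd8b1 and Runx3 in CPM per 1000 CPM of those markers, on log axes; symbols as in the plot of levels. Cd8a lies between 248 and 320 in all libraries but the 2 of ILTCkP, while Cd8b1 in NK1.1+ ILTCk (11.7 and 34.1) lies below both other tumour groups.

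The ratio of the β to the α chain needs no scaling between libraries. Cd8b1 to Cd8a per kilobase was 1.27 and 2.67 for PD1+ Tconv, 0.690 and 1.70 for NK1.1- ILTCk, and only 0.0963 and 0.338 for NK1.1+ ILTCk. Both NK1.1+ ILTCk libraries lay below every other library of the series, and the 2 CD8SP libraries lay above all others. The mean log2 count ratio was lower in NK1.1+ ILTCk by 3.35 than in PD1+ Tconv and by 2.59 than in NK1.1- ILTCk (exact permutation tests, two-sided, p = 0.333 for each, the smallest possible). The difference of NK1.1- ILTCk from PD1+ Tconv was -0.77, with overlapping libraries (exact permutation p = 0.667). With Benjamini-Hochberg adjustment over so few tests none of the 4 could fall under the threshold, since each p is 0.333 or more.

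**Figure D4:**
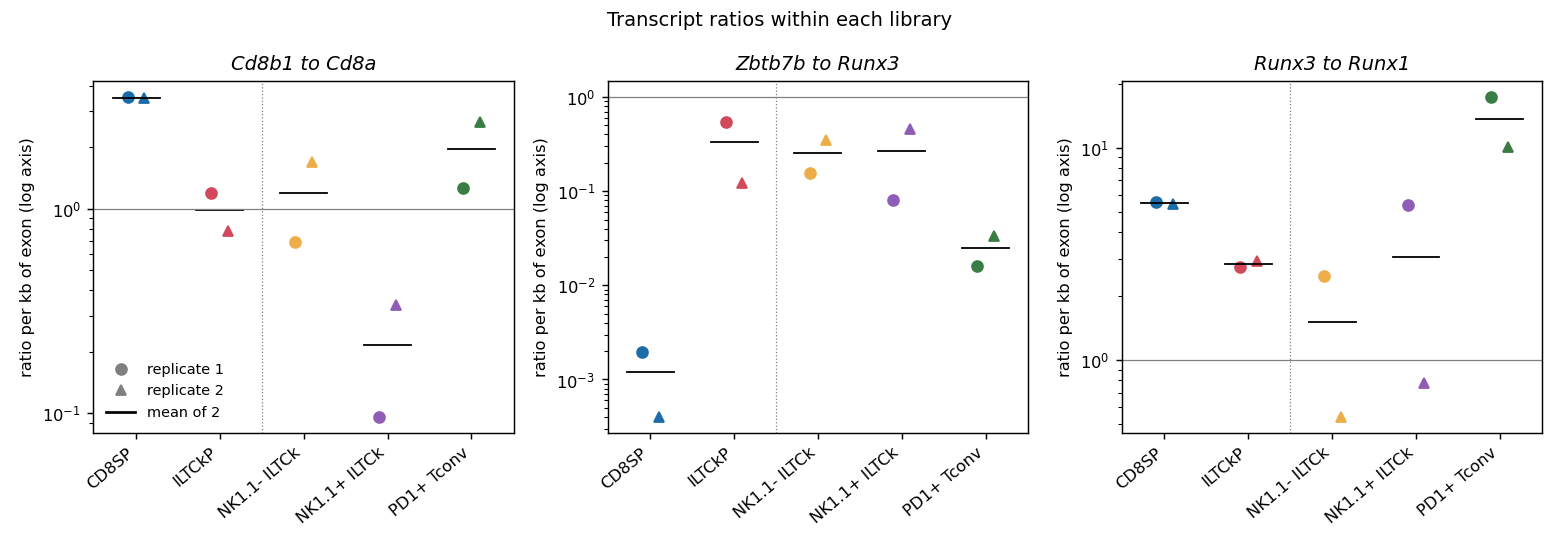
Ratios of transcript levels per kilobase of exon within each library, on log axes, for Cd8b1 to Cd8a, Zbtb7b to Runx3, and Runx3 to Runx1; symbols as in the plot of levels and the grey line marks equal levels. NK1.1+ ILTCk (0.0963 and 0.338) has the lowest Cd8b1 to Cd8a ratios, and PD1+ Tconv (17.3 and 10.1) the highest Runx3 to Runx1 ratios.

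Cd4 was low in every tumour group, as the CD4-negative gate selects in NK1.1+ ILTCk and PD1+ Tconv. It was at 33.9 and 30.7 CPM in NK1.1- ILTCk, the highest group of the 5, at 13.9 and 6.00 CPM in NK1.1+ ILTCk, and at 21.0 and 1.62 CPM in PD1+ Tconv. NK1.1- ILTCk did not overlap the others, but its log2 differences of 1.50 ± 1.01 from PD1+ Tconv (edgeR adjusted p = 0.59) and 1.69 ± 1.02 from NK1.1+ ILTCk (adjusted p = 1) did not pass the test. Relative to the T cell markers, Cd4 was at 22.7 and 28.1 CPM per 1000 in NK1.1- ILTCk, above every library of the other groups. NK1.1+ ILTCk was at 4.68 and 10.1 on that scale, and PD1+ Tconv at 4.46 and 0.511. Macrophages and dendritic cells of some kinds can carry Cd4, and their markers were high in both ILTCk groups. The part of such cells in the Cd4 values was not tested.

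Zbtb7b was detected in all 6 tumour libraries. It was at 9.98 and 7.12 CPM in NK1.1- ILTCk, 10.2 and 15.7 CPM in NK1.1+ ILTCk, and 4.84 and 8.03 CPM in PD1+ Tconv. NK1.1+ ILTCk lay above PD1+ Tconv in both libraries, with a log2 difference of 1.02 ± 0.55 (edgeR adjusted p = 0.452); NK1.1- ILTCk overlapped PD1+ Tconv (0.42 ± 0.54, adjusted p = 0.796). The highest level was in NK1.1+ ILTCk replicate 2, the library with the most macrophage markers and the fewest T cell markers; their part in Zbtb7b was not tested. Its overlapping gene Gm15417 had 113 and 76 counts in NK1.1- ILTCk, 56 and 157 counts in NK1.1+ ILTCk, and 12 and 71 counts in PD1+ Tconv.

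Runx3 was at 268 and 216 CPM in PD1+ Tconv, and at 113 and 31.1 CPM in NK1.1+ ILTCk. The NK1.1- ILTCk libraries held 57.1 and 18.1 CPM. Both PD1+ Tconv libraries were above every ILTCk library, and the ILTCk groups overlapped. The log2 difference from PD1+ Tconv was -1.75 ± 0.75 for NK1.1+ ILTCk (adjusted p = 0.354 with edgeR and 0.169 with DESeq2). For NK1.1- ILTCk it was -2.68 ± 0.77 (adjusted p = 0.361 with edgeR and 0.0198 with DESeq2), a DESeq2 call lost when replicate 2 of NK1.1- ILTCk (0.421) or replicate 1 of PD1+ Tconv (0.136) was left out. In units of 1000 CPM of T cell markers, Runx3 was at 57.1 and 68.0 CPM in PD1+ Tconv, 37.8 and 52.5 for NK1.1+ ILTCk, and 38.3 and 16.5 for NK1.1- ILTCk, a narrower range than in CPM and above the 6.59 to 10.9 of the 4 thymic libraries.

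Runx1, unlike Runx3, had a higher mean in the ILTCk groups than in PD1+ Tconv. NK1.1- ILTCk had 55.1 and 80.4 CPM, NK1.1+ ILTCk had 50.7 and 96.4 CPM, against 37.2 and 51.4 CPM in PD1+ Tconv. The log2 differences from PD1+ Tconv were 0.61 ± 0.45 and 0.73 ± 0.45 (edgeR adjusted p = 0.618 and 0.523). Relative to the T cell markers, Runx1 was at 37.0 and 73.5 CPM per 1000 in NK1.1- ILTCk. NK1.1+ ILTCk was at 17.0 and 163 on that scale, and PD1+ Tconv at 7.93 and 16.2. Macrophages also express Runx1, and macrophage markers moved with it. The part of macrophages in the Runx1 values was not tested. Per kilobase, Runx3 was at 17.3 and 10.1 times Runx1 in PD1+ Tconv, at 2.49 and 0.540 times in NK1.1- ILTCk, and at 5.35 and 0.776 times in the NK1.1+ libraries. In the thymus the ratio was 5.54 and 5.41 in CD8SP and 2.73 and 2.93 in ILTCkP, with replicates close together.

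Patz1 was lower in every tumour library than in any thymic library. It was at 31.1 and 16.5 CPM in PD1+ Tconv, and at 14.7 and 14.2 CPM in NK1.1+ ILTCk. The NK1.1- ILTCk libraries held 13.1 and 11.9 CPM. The tables share no sample, so levels between thymus and tumour were compared as a description; with the 10 libraries scaled together, the order of the 5 groups was the same for each of the 7 genes. The log2 differences from PD1+ Tconv were -0.72 ± 0.46 and -0.94 ± 0.46 (edgeR adjusted p = 0.536 for NK1.1+ and 0.465 for NK1.1- ILTCk). In units of 1000 CPM of T cell markers the range of Patz1 over the 10 libraries was 4.92 to 24.0, with thymus and tumour overlapping.

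In the order of mean levels from low to high, Cd8b1 ran ILTCkP, NK1.1+ ILTCk, NK1.1- ILTCk, PD1+ Tconv, CD8SP, and Patz1 ran NK1.1- ILTCk, NK1.1+ ILTCk, PD1+ Tconv, CD8SP, ILTCkP, with no neighbours overlapping. Zbtb7b ran CD8SP, PD1+ Tconv, NK1.1- ILTCk, NK1.1+ ILTCk, ILTCkP; PD1+ Tconv overlapped NK1.1- ILTCk, and NK1.1+ ILTCk overlapped ILTCkP. Cd8a ran ILTCkP, NK1.1- ILTCk, NK1.1+ ILTCk, PD1+ Tconv, CD8SP, with NK1.1+ ILTCk overlapping both neighbours. For Cd4, Runx3 and Runx1, 3 of the 4 neighbouring pairs overlapped. In CPM, the ends of these orders set ILTCkP and CD8SP apart for the CD8 chains and for Zbtb7b, with the tumour groups between them. With levels taken per 1000 CPM of T cell markers, this held for Cd8b1 but not for Cd8a or Zbtb7b. Cd8a was then nearly level across CD8SP and the tumour groups. Zbtb7b was at 6.70 and 6.51 for the NK1.1- group, above the 3.98 and 1.48 of ILTCkP. The NK1.1+ libraries (3.43 and 26.6) and those of PD1+ Tconv (1.03 and 2.53) overlapped ILTCkP, and CD8SP stayed lowest (0.0177 and 0.00437).

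The partner genes were mostly lower in the ILTCk groups than in PD1+ Tconv, and so were the T cell markers. edgeR called 0 of the 40 in each tumour contrast. Between NK1.1+ ILTCk and PD1+ Tconv 14 of the 40 had an unadjusted p under 0.05 (14.3% of all genes did), DESeq2 called 0 higher and 10 lower (7.01% of all genes in either direction), and the median log2 difference was -0.57. In NK1.1- ILTCk against PD1+ Tconv 12 had an unadjusted p under 0.05 (11.9% of all genes), DESeq2 called 0 higher and 6 lower (3.91% of all genes), and the median was -0.61. The DESeq2 counts rested on single libraries: 4 without NK1.1+ ILTCk replicate 2 and 5 without PD1+ Tconv replicate 1 in the former, and 2, 0 and 11 without NK1.1- ILTCk replicate 1, NK1.1- ILTCk replicate 2 and PD1+ Tconv replicate 2 in the latter. In NK1.1+ against NK1.1- ILTCk 4 of the 40 had an unadjusted p under 0.05 (3.94% of all genes), DESeq2 called 2 lower in NK1.1+ ILTCk, Themis and Il7r, the IL-7 receptor, beside 0.315% of all genes, and the median was 0.06; with either NK1.1- ILTCk library or NK1.1+ ILTCk replicate 2 left out, it called 0.

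Themis, Bcl11b and Runx2, a Runx factor best known from bone, had the largest partner differences between NK1.1+ ILTCk and PD1+ Tconv. Themis was at 2.84 ± 2.68 against 160 ± 110 CPM (log2 -5.82, edgeR adjusted p = 0.0931). Bcl11b was at 8.31 ± 6.32 against 183 ± 12.2 CPM (log2 -4.46, edgeR adjusted p = 0.0875), and Runx2 at 7.02 ± 2.78 against 70.5 ± 5.07 CPM (log2 -3.33, edgeR adjusted p = 0.0779). In NK1.1- ILTCk the same genes were at 27.3 ± 10.5, 24.1 ± 12.02 and 15.2 ± 0.686 CPM. Set against the T cell markers, Themis was at 1.59 and 1.60 CPM per 1000 in NK1.1+ ILTCk, with 13.3 and 31.7 for NK1.1- ILTCk and 50.8 and 26.0 for PD1+ Tconv. Bcl11b was at 4.29 and 6.47, 21.9 and 14.3, and 40.8 and 54.9 on that scale. For both genes NK1.1+ ILTCk stayed the lowest tumour group, without overlap, in units of T cell markers.

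Other partners lost their gap on that scale. Tcf7, the gene of TCF-1, was at 16.6 ± 3.50 CPM in NK1.1+ ILTCk and 87.8 ± 52.7 CPM in PD1+ Tconv (log2 -2.40), but at 6.41 and 23.9 against 26.6 and 15.9 CPM per 1000 CPM of T cell markers. Its relative Lef1 (log2 -2.30) was at 1.14 and 5.56 against 4.05 and 4.39 on that scale. Tox, a factor of CD4 lineage choice and of exhausted T cells, kept it, with 14.7 and 10.8 in NK1.1+ ILTCk, 14.9 and 5.68 in the NK1.1- libraries, and 63.1 and 52.8 in PD1+ Tconv. Its log2 differences were -3.20 and -4.02. Ets1 and Ikzf3 had a log2 difference of -2.06 each between NK1.1- ILTCk and PD1+ Tconv, with SE of 0.85 and 1.00. Per 1000 CPM of T cell markers these groups overlapped for both genes. Ets1 was at 115 and 82.3 in NK1.1- ILTCk against 183 and 72.5 in PD1+ Tconv, and Ikzf3 at 64.3 and 37.0 against 94.6 and 39.0. Tle1, a corepressor that Runx proteins recruit, went the other way, at 21.4 ± 5.03 CPM in NK1.1+ ILTCk, 25.2 ± 5.46 CPM in the NK1.1- group and 8.14 ± 4.31 CPM in PD1+ Tconv; it was named after its values were seen.

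The ILTCk groups differed less from each other in the partner genes. Themis had the largest (log2 -3.26). Il7r followed at 9.90 ± 0.0265 CPM in the NK1.1+ and 37.6 ± 8.18 CPM in the NK1.1- group (log2 -1.92), then Bcl11b (-1.54), Runx2 (-1.11) and Tcf7 (-1.09), while the corepressor gene Tle4 was higher by 0.99. Each had an edgeR adjusted p of 1.

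The lineage programmes had 0 edgeR calls in the tumour contrasts. Eomes was at 106 ± 39.0 CPM in PD1+ Tconv, 6.98 ± 0.134 CPM in NK1.1- ILTCk, 2.38 ± 1.38 CPM in the NK1.1+ group (log2 -3.93 and -5.48 against PD1+ Tconv). Prf1, the gene of perforin, had log2 differences of -2.61 and -2.54. Ifng, the cytokine interferon-γ, was at 6.999 ± 1.79 CPM in NK1.1+ ILTCk against 69.5 ± 9.74 CPM in PD1+ Tconv. Not all of the CD8 list was lower in NK1.1+ ILTCk. Its means there were higher than in PD1+ Tconv for Gzmb (1755 ± 1723 against 874 ± 859 CPM), Xcl1 (519 ± 470 against 261 ± 142) and Itgae (543 ± 586 against 409 ± 427). The libraries overlapped for each of these, and the other genes of the list had lower means. Of the helper genes, Icos, a costimulatory receptor, was at 7.54 ± 0.138 CPM in NK1.1+ ILTCk, 53.3 ± 25.0 CPM in the NK1.1- group and 107 ± 17.3 CPM in PD1+ Tconv. Per 1000 CPM of T cell markers, Icos was at 2.56 and 12.6 in NK1.1+ ILTCk. On that scale NK1.1- ILTCk (23.9 and 65.0) overlapped PD1+ Tconv (20.2 and 37.7). Cxcr5, the follicular homing receptor, was at 1.75 ± 1.83 and 1.91 ± 1.02 CPM in the NK1.1+ and NK1.1- ILTCk groups against 30.0 ± 20.3 CPM in PD1+ Tconv. Cd40lg was highest in NK1.1- ILTCk, at 10.99 ± 2.52 CPM against 1.30 ± 1.07 CPM in NK1.1+ ILTCk and 2.47 ± 1.32 CPM in PD1+ Tconv. Izumo1r, the folate receptor FR4 of helper cells, had log2 differences from PD1+ Tconv of -2.92 in NK1.1+ and -1.70 in NK1.1- ILTCk. Ccl5 had a log2 difference of -2.19 in NK1.1- ILTCk from PD1+ Tconv, and Rora, a nuclear receptor gene, of -1.23 in NK1.1+ from NK1.1- ILTCk. The median log2 differences of the CD8 list were -1.14 for NK1.1+ ILTCk and -1.75 for NK1.1- ILTCk against PD1+ Tconv, and those of the CD4 list were -0.94 and 0.10.

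The genes most like each of the 7 in pattern were sought by Pearson r of log2(CPM + 1) over the 10 libraries scaled together, among 7176 genes. For Cd8a these were Inpp4b (0.941), Tgtp2 and Cd226, and for Cd8b1 Phf11c (0.969), Gramd3 and Asb13. For Zbtb7b they were Lgals3 (0.962), Abhd4 and Carhsp1; for Runx3, Synrg (0.931), Ino80d and Rprd2; for Runx1, Mtmr10 (0.957), Tnip2 and Kdelr2. Patz1 had the closest match of all, Prrc2a (0.994), followed by Gcn1l1 and Kcnab2, and Cd4 the weakest, Otud6b (0.916), followed by Nbr1 and Stambp. No gene appeared beside more than 1 of the 7. The 10 libraries fall into 5 groups and differ in T cell and macrophage content, which all genes share, so these values describe the libraries only.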

How the data were processed

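The deposited values were whole-number counts of reads per gene, in a thymic and a tumour table of 50508 symbols each, which the labels describe as raw. mm10 and DESeq (no version) appear in the submitters' processing notes; aligner, counter and annotation: not given in the sources used here. The single-cell libraries were not analysed here.

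The tables were fitted separately with edgeR 4.0.16 (filterByExpr, TMM, glmQLFit with robust estimation, glmQLFTest; Benjamini-Hochberg over all genes tested, called at an adjusted p under 0.05), the tumour contrasts with the spread of all 6 libraries. R was 4.3.3. Alternatives were DESeq2 1.42.0, limma 3.58.1 (voom), RLE and upper-quartile scaling, no filter, a minimum of 50 counts in 2 libraries, the 4 compared libraries alone, a replicate block, and each library left out. Leaving libraries out of DESeq2 calls and partner counts, and levels relative to T cell markers or CD3 chains, were added after the data were seen. CPM were scaled by TMM within a table. Lengths are merged exons of GENCODE M21. The scripts were tested on simulated data.

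The 7 genes and the lists were chosen with earlier results of these data known. Named partners were those edgeR called or, with none called, up to 6 without overlap and with the largest difference at a logCPM of at least 2 (3 for the programme lists). Likeness used genes with a logCPM of at least 4, leaving out the 7 genes, receptor segments, predicted and ribosomal protein genes. Intervals cover counting error only.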

Additional observations from a re-analysis of the deposited data

How the results depend on the processing

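The directions and calls of Cd8a, Cd8b1 and Zbtb7b in the thymus held under every alternative run. Refits were compared with the main edgeR fit, and DESeq2 calls refitted with a library left out were compared with the full DESeq2 fit. Of these fold changes of the 7 genes, 323 kept their direction and side of the threshold and 18 newly passed it. Another 6, all DESeq2 calls in tumour contrasts with a library left out, no longer passed it. The other 10 changed sign, and none of those 10 results was called. With only 2 libraries a group, adjusted p-values depend on how the spread is estimated.

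The number of the 7 genes called was 3 in the thymus, 3 to 5 with a library left out, and 4 with the replicate block, which added Cd4 (log2 1.32, edgeR adjusted p = 0.0389). Between NK1.1+ ILTCk and PD1+ Tconv it was 0, and 1 with DESeq2, 1 with limma-voom, 2 with no filter and 2 with the replicate block. NK1.1- ILTCk against PD1+ Tconv gave 0, and 2 with DESeq2, 2 with no filter and 2 with the replicate block. The block called Cd8b1 and Runx3 in both contrasts, with edgeR adjusted p of 0.00364 and 0.0369 in the former and 0.0451 and 0.032 in the latter. The ILTCk groups gave 0, and 1 with DESeq2 and 1 with no filter. With any library left out it was 0 in each tumour contrast.

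All genes called numbered 689 in the thymus, 1997 with DESeq2, 2535 with no filter, 2212 with the replicate block and 592 to 7017 with a library left out. Between NK1.1+ ILTCk and PD1+ Tconv the count was 0, against 1268 with DESeq2, 3 with limma-voom, 1249 with no filter, 755 with the replicate block and 0 to 35 with a library left out. NK1.1- ILTCk against PD1+ Tconv gave 0, against 707 with DESeq2, 799 with no filter and 298 with the block. The ILTCk groups gave 0, against 57 with DESeq2 and 167 with no filter. The cause of these differences was not tested.

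The values that changed sign were small or rested on 1 library. In the thymus, Runx3 was 0.042 without ILTCkP replicate 1 (range with a library left out -0.76 to 0.042). Cd4 between NK1.1+ ILTCk and PD1+ Tconv was 0.25 with limma-voom and with the replicate block, 0.29 without NK1.1+ ILTCk replicate 2 and 2.63 without PD1+ Tconv replicate 1 (range -1.10 to 2.63). Between the ILTCk groups, Cd8a was -0.034 with limma-voom and -1.38 without NK1.1+ ILTCk replicate 1 (range -1.38 to 1.21), Runx1 -0.12 without NK1.1- ILTCk replicate 1 and -0.42 without NK1.1+ ILTCk replicate 2 (range -0.42 to 0.51), and Runx3 -0.28 without NK1.1+ ILTCk replicate 1 (range -0.28 to 1.997).

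The log2 ratio of Cd8b1 to Cd8a counts, with a library left out, ran from -2.17 to -1.55 in the thymus, from -4.26 to -2.45 between NK1.1+ ILTCk and PD1+ Tconv, from -1.42 to -0.12 between NK1.1- ILTCk and PD1+ Tconv, and from -3.49 to -1.68 between the ILTCk groups. Replicate numbers are shared between groups, but no label says that they mark a shared batch. Differences of replicate 1 from replicate 2 correlated across genes at 0.192 between the thymic groups and at 0.364 to 0.408 between the tumour groups.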
